A study of Danio rerio with 2 samples.

Results

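Homeobox and paired box genes encode transcription factors that give cells of the early embryo their position along the head-to-tail and back-to-belly axes. Genes of the otx, six3, hesx and emx families mark the future head, gbx, eng and irx genes the midbrain and hindbrain, dlx, msx and six4 genes the border of the neural plate, and cdx and hox genes the trunk and tail. In zebrafish, domains of the earliest of these genes are set up in the gastrula, while many hox, pax and nkx genes are better known from later stages.

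The genes described here were chosen by symbol alone, as the gene models whose deposited name starts with 1 of a fixed set of homeobox or paired box stems. The rule took 174 of the 32571 gene models in the deposited table, from 21 families, and used no measured value. RNA came from AB strain zebrafish, from whole embryos at 6 hpf (hours post fertilization, early gastrula), in pools of 40 to 50, that had received a mock injection (the control) or an injection of Dcp2-DN. Dcp2 is the enzyme that takes the cap off an mRNA before it is degraded from that end, DN commonly stands for a dominant-negative form, and the question was which transcripts change when Dcp2 is inhibited. There is 1 sample entry per group, while triplicates (3 replicates) are stated in the design text. The authors' deposited table gives 1 FPKM value per gene and group (mapped fragments normalised to transcript length and library size), so no value below has an SD or an n. How library size was scaled is not given in the sources used here. Differences can be judged only by the authors' own Cuffdiff test. A gene is named as called where that table marks it significant, which was the case for tested genes with a q-value under 0.05, and "rose" and "fell" are used only for such genes. Whether all replicates entered the test was not given in the sources used here, so its p-values may measure only technical spread.

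The dcp2 symbol itself is carried by a pair of gene models. ENSDARG00000089419, the one that differed by more between the groups, stood at 0.0398 FPKM in mock against 212 FPKM in Dcp2-DN embryos, a difference that the authors' deposited table did not call (q = 0.303). The other, ENSDARG00000039016, was at 13.9 FPKM in mock against 16.7 FPKM in Dcp2-DN embryos. It was not called either (q = 0.109 in the authors' deposited table). Genes of gastrula cells were present as the label implies, with 14 of 14 listed genes at 1 FPKM or more in both groups and none at 0. Of 15 models for genes of later differentiated cells, 5 were at 0 in both groups, and the highest was at 1.21 FPKM in mock against 1.17 FPKM in Dcp2-DN embryos. The summed level of the gastrula list was 2055 FPKM in mock against 2128 FPKM in Dcp2-DN embryos. Library depth was unknown because the table holds no counts.

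Most of these genes were low at 6 hpf. Only 34 of the 174 (19.5%) reached 1 FPKM in mock and 38 (21.8%) in Dcp2-DN embryos, against 46.8% and 47.8% of all gene models in the table. Both groups reached this level for 31 genes, mock alone for 3 and Dcp2-DN alone for 7. Of all 32571 gene models, 14874 reached it in both groups, 378 in mock alone and 684 in Dcp2-DN alone. The other 133 of the 174 stayed under 1 FPKM in both groups, among them 15 at 0 in both. For all gene models these counts were 16635 and 7364, so the share at 0 was smaller among the 174 genes. The authors tested 33 of the 174, each with a mean that reached 1 FPKM, and listed the other 141 as not tested. What follows on calls is therefore about 33 genes and not about the whole set.

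Among the tested genes, the authors' deposited table called 8 lower and 4 higher in Dcp2-DN embryos and left 21 without a call. The 8 genes that fell were otx1a, otx2, lhx5, six3b, irx1b, six4a, msxc and cdx4, and the 4 that rose were irx7, gbx1, lhx8a and pax1b. In the authors' deposited table as a whole, 4.35% of 14810 tested genes were called lower and 20.6% higher. The shares among the tested homeobox and paired box genes were 24.2% lower and 12.1% higher, so the balance of calls lay on the other side. In either direction, 12 of 33 (36.4%) were called, against 24.9% for the authors' deposited table as a whole. By the unadjusted p of the authors' deposited table (under 0.05), 9 members were lower and 6 higher, the additional ones being pbx4 (lower), hesx1 and meis4.1a (higher). Of all 14810 tested genes, 1218 were lower and 4066 higher at this threshold. Those counts are the background for each count by unadjusted p below. 3 of the tested members reached 1 FPKM in 1 group only: otx2 in mock, and emx3 and pax1b in Dcp2-DN embryos. Grouped by mean level, between 2.73% and 9.25% of all tested genes in a level class were called lower. No test was made of the set as a whole, and since the genes are not replicates these shares are descriptions.

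These measurements are of whole embryos, so fewer cells of a type and less RNA per cell cannot be told apart. Markers of the outer enveloping layer moved in the direction of the homeobox falls: the authors' deposited table called 7 of 11 lower and 0 higher (7 and 0 at an unadjusted Cuffdiff p under 0.05), the list summed to 4353 FPKM in mock against 3524 FPKM in Dcp2-DN embryos, and none was at 0. Of 5 tested yolk syncytial layer genes, the authors' deposited table held 1 as higher and 1 as lower, with sums of 206 and 247 FPKM over the list. The higher one, mxtx2, was at 35.8 FPKM in mock against 93.6 FPKM in Dcp2-DN embryos. The lower one, apoa1a, was at 46.7 and 35.3 FPKM. The median log2 ratio over the 5 genes was -0.22, so the higher sum came with mxtx2 and not with most of the list. Of 14 gastrula genes, the authors' deposited table held 2 as higher (14.3%) and 4 as lower (28.6%). The enveloping layer shares were 0% higher and 63.6% lower, and those of the tested yolk syncytial layer genes 20% each way. Of all tested genes, 20.6% were called higher and 4.35% lower. The part of these other cell types in the homeobox and paired box values was not tested.

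**Figure D1:**
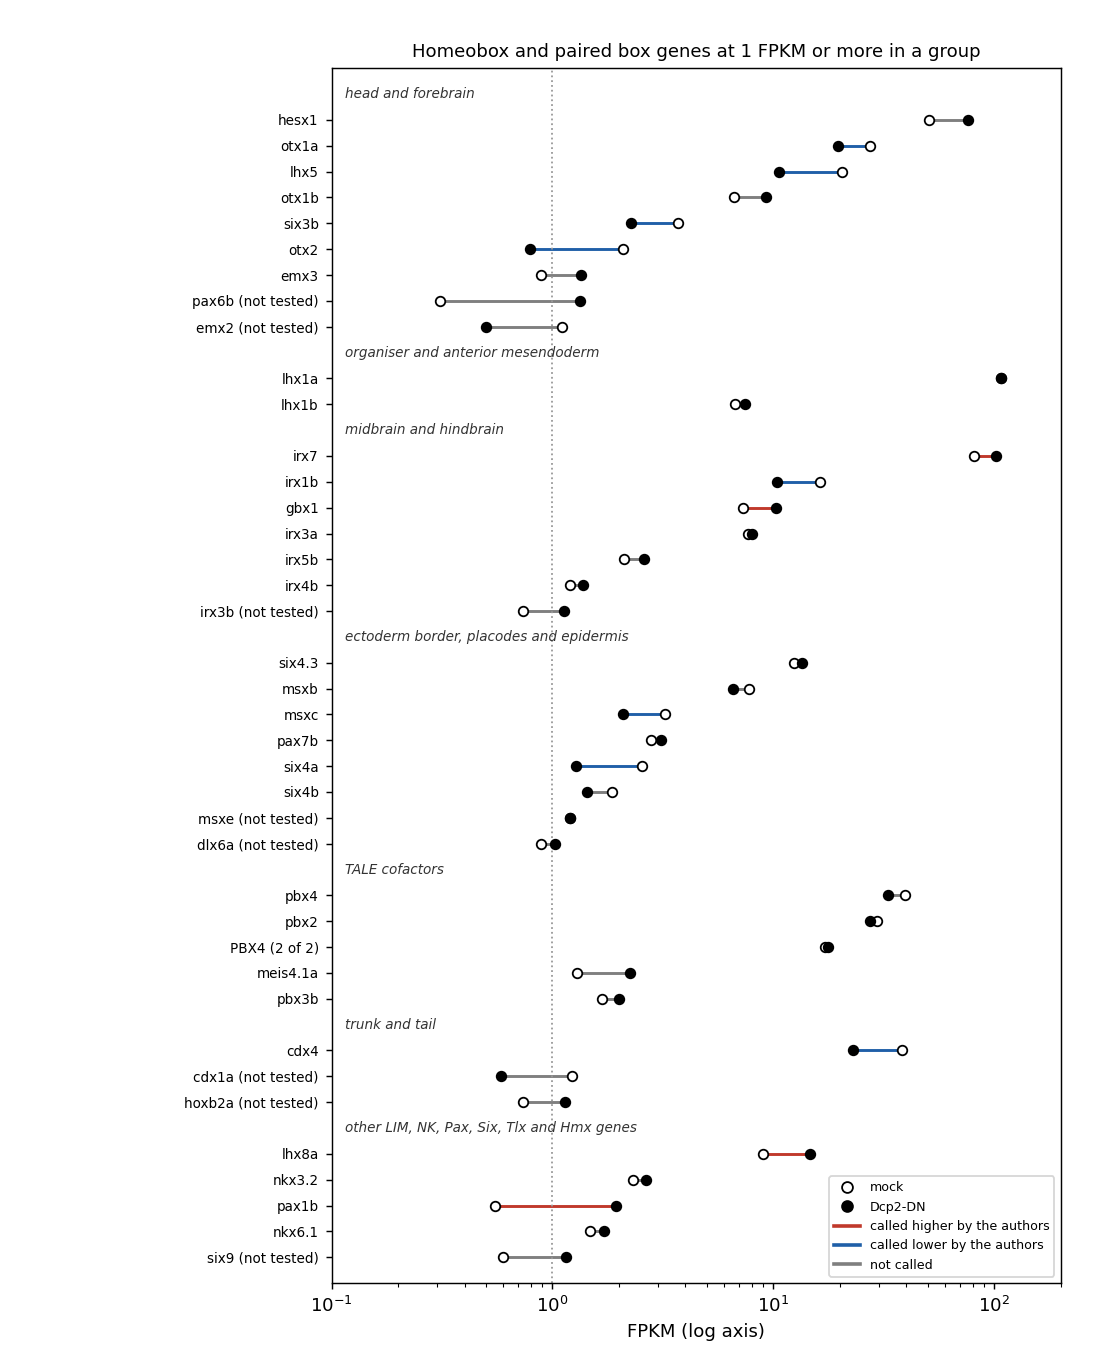
FPKM in mock (open circles) and Dcp2-DN embryos (filled circles) on a log axis for 39 genes with at least 1 FPKM in a group, ordered by role, with the joining line coloured by the authors' call and a dotted line at 1 FPKM. The 8 genes called lower lie in the head, midbrain and hindbrain, ectoderm border and trunk groups, and the values run from under 1 FPKM to 108 FPKM for lhx1a.

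The genes called lower changed by more than most falls of the series. Their median fold was 1.65, and 7 of 8 differed by at least 1.5-fold. For the 644 falls that the authors' deposited table holds in all, the median fold was 1.31, and 20.3% reached 1.5-fold. The members that fell were also less abundant. Their median was 10.03 FPKM in the higher group, against 33.4 FPKM for all falls in the authors' deposited table. Neither the folds nor the ranks below were compared at like level, and the part of level in them was not tested. Ranked by log2 ratio (pseudocount 0.1 FPKM) among the 644 falls, otx2 stood at place 9, lhx5 at 29, six4a at 31 and cdx4 at 63. All 8 were within the largest 30.9% of falls. The 4 that rose were spread differently: pax1b was at place 47 of the 3051 rises in the authors' deposited table, and irx7 at place 2862.

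**Figure D2:**
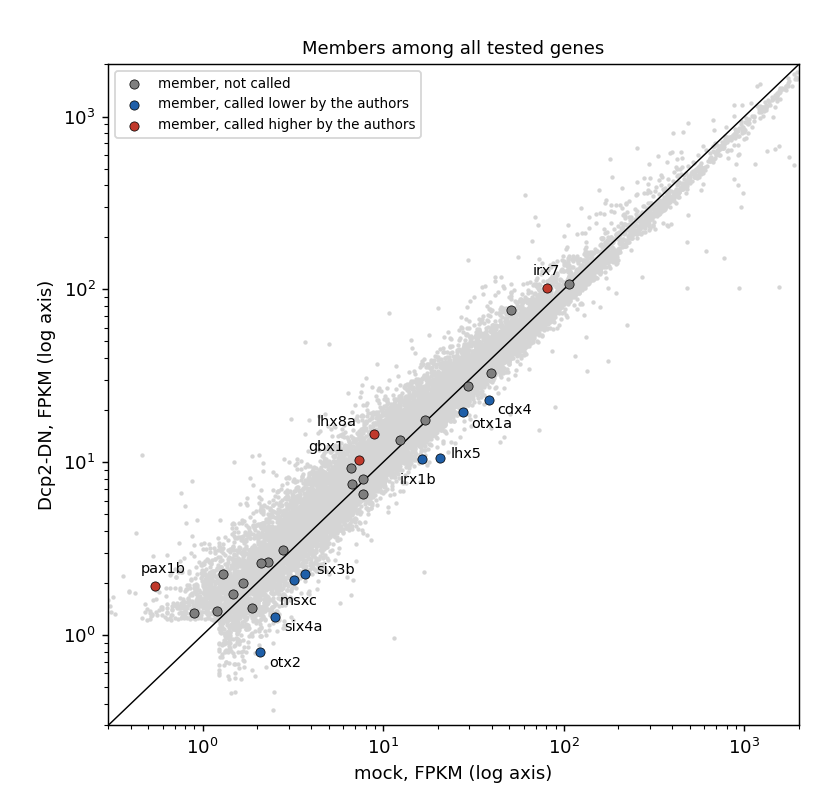
FPKM in mock (x, log axis) against Dcp2-DN embryos (y, log axis) for all genes tested by the authors (grey; those with 0.3 to 2000 FPKM in both groups are drawn) and for 31 tested homeobox and paired box genes (coloured by the authors' call), with the line of equal values. The 8 genes called lower lie below the line and the 4 called higher above it.

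The head and forebrain genes held 4 of the 8 falls. Of 24 such genes, 7 were tested. The authors' deposited table called 4 lower (57.1%) and 0 higher, against 4.35% and 20.6% of all tested genes. With 7 tested genes the group shares are coarse. At an unadjusted Cuffdiff p under 0.05, 4 were lower and 1 higher. otx1a (ENSDARG00000030703, chromosome 1, 51430587 to 51439279, Zv9 locus span as deposited), an Otx gene of the forebrain and midbrain, was at 27.5 FPKM in mock against 19.6 FPKM in Dcp2-DN embryos, 1.4-fold lower (q = 0.00480 in the authors' deposited table). lhx5 (ENSDARG00000057936, chromosome 21, 14116195 to 14132109), a LIM homeobox gene that in zebrafish promotes forebrain formation, was at 20.5 and 10.6 FPKM in mock and Dcp2-DN embryos. Its log2 ratio of -0.95 (q = 0.000593 in the authors' deposited table) was the second lowest of the tested members. That q-value, here and below, is the lowest the authors' Cuffdiff test gave. It was shared by 1249 gene models, so it does not rank them. six3b (ENSDARG00000054879, chromosome 12, 27128336 to 27130993), a sine oculis-related gene of the anterior forebrain and eye field, went from 3.71 FPKM in mock to 2.27 FPKM, a 1.64-fold fall (q = 0.0124 in the authors' deposited table). otx2 (ENSDARG00000011235, chromosome 17, 44291215 to 44296095), the other Otx gene of the anterior embryo that fell, had the lowest log2 ratio of the tested members, -1.28, and the lowest level of the 4. It stood at 2.08 FPKM in mock and under 1 FPKM, at 0.794, in Dcp2-DN embryos (q = 0.00153 in the authors' deposited table). With a pseudocount of 1 FPKM the order of otx2 and lhx5 was reversed, at -0.78 and -0.89.

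The other tested head genes did not pass the authors' test, and all of these had the higher value in Dcp2-DN embryos. hesx1 (ENSDARG00000054509), a transcriptional repressor expressed in the anterior neural plate, was the most abundant gene of this group. It was at 50.8 FPKM in mock against 75.8 FPKM in Dcp2-DN embryos, with p = 0.04035 and q = 0.119 in the authors' deposited table. otx1b, paired with otx1a by its deposited symbol only, was at 6.60 FPKM in mock against 9.23 FPKM in Dcp2-DN embryos (q = 0.384 in the authors' deposited table). Its locus span was shared with 1 other gene. emx3, a gene of the future telencephalon, was at 0.891 and 1.35 FPKM (q = 0.343 in the authors' deposited table). With hesx1 the largest contributor, the summed level of the head group was 118 FPKM in mock against 127 FPKM in Dcp2-DN embryos, although its 4 called genes all fell. Without a test by the authors, pax6b, an eye and brain gene, was at 0.310 FPKM in mock against 1.34 FPKM in Dcp2-DN embryos, and emx2 was at 1.1 and 0.503 FPKM. The eye genes rx1, rx2, rx3 and vsx1 stayed under 1 FPKM in both groups. The highest gene of the head group under this level was six6b, at 0.317 FPKM in mock against 0.971 FPKM in Dcp2-DN embryos. six6b was untested, and its locus span was shared with 4 other genes.

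The LIM homeobox pair of the organiser, lhx1a and lhx1b, was not called, and neither gene had an unadjusted Cuffdiff p under 0.05. lhx1a (ENSDARG00000014018, chromosome 15, 27052292 to 27059459), expressed in the dorsal organiser in vertebrate gastrulae, was the most abundant gene of the whole set, at 107 FPKM in mock against 108 FPKM in Dcp2-DN embryos (q = 0.987 in the authors' deposited table). lhx1b was at 6.70 and 7.45 FPKM (q = 0.516 in the authors' deposited table). lhx1a alone made up 18.9% of the summed FPKM of the 174 genes in mock and 18.2% in Dcp2-DN embryos, and the 10 genes most abundant in mock made up 76.1% and 75.0%.

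Genes of the midbrain and hindbrain went both ways. Of 21 genes, 6 were tested, and the authors' deposited table held 2 as higher (33.3%) and 1 as lower (16.7%). The shares of all tested genes were 20.6% and 4.35%, and with 6 genes the group shares are coarse. irx7 (ENSDARG00000002601, chromosome 23, 37908869 to 37910194), an Iroquois gene needed in zebrafish at the midbrain-hindbrain boundary, rose from 80.7 FPKM in mock to 102 FPKM in Dcp2-DN embryos, a 1.27-fold rise (q = 0.0114 in the authors' deposited table). gbx1 (ENSDARG00000071418, chromosome 24, 35435370 to 35438473), which in zebrafish marks the future hindbrain during gastrulation, rose from 7.32 to 10.3 FPKM, a 1.41-fold rise (q = 0.0133 in the authors' deposited table). irx1b (ENSDARG00000056594, chromosome 19, 28613318 to 28616331), a further Iroquois gene of the neural plate, fell instead, from 16.3 FPKM in mock to 10.4 FPKM in Dcp2-DN embryos (a 1.57-fold fall, q = 0.000593 in the authors' deposited table). Both Iroquois genes with a call thus lay on opposite sides, and the difference between them was not tested.

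The remaining Iroquois genes were not called. irx4b, whose locus span lies 125409 bases from that of irx1b, was at 1.21 FPKM in mock against 1.37 FPKM in Dcp2-DN embryos (q = 0.715 in the authors' deposited table). irx3a, with a locus span shared with 1 other gene, was at 7.70 and 8.0 FPKM (q = 0.911 in the authors' deposited table). irx5b was at 2.11 and 2.59 FPKM (q = 0.257 in the authors' deposited table). Of the 11 Iroquois genes, 5 stayed under 1 FPKM in both groups, and irx3b, without a test, was at 0.739 and 1.12 FPKM. The engrailed genes and pax2a, pax2b, pax5 and pax8, known from the midbrain-hindbrain boundary and the ear and kidney of later embryos, were all under 1 FPKM in both groups, with pax5 the highest at 0.658 FPKM in mock against 0.577 FPKM in Dcp2-DN embryos. gbx2, the relative of gbx1 that takes over later in the hindbrain, was at 0.171 and 0.0856 FPKM.

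**Figure D3:**
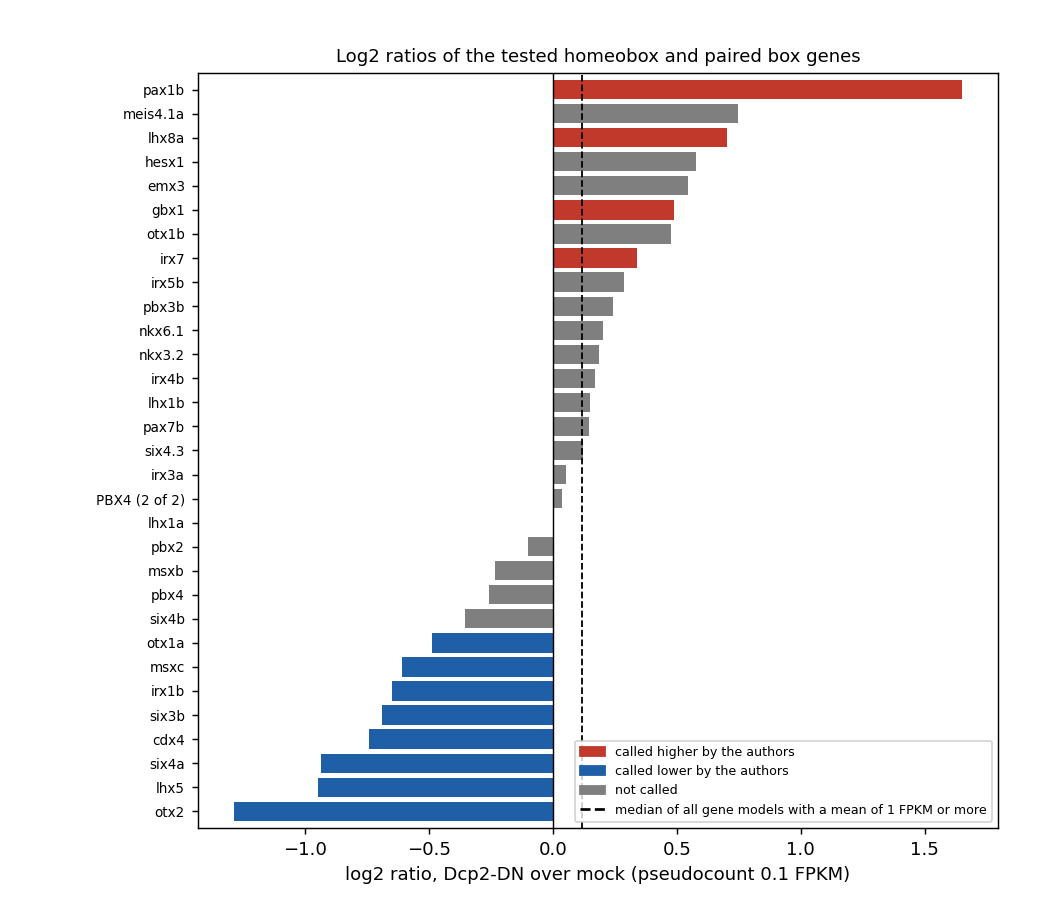
Log2 ratios of Dcp2-DN over mock (pseudocount 0.1 FPKM) for 31 genes tested by the authors, sorted, with bars coloured by the authors' call and a dashed line at 0.12, the median of all gene models whose mean reached 1 FPKM. The bars run from -1.28 for otx2 to 1.65 for pax1b, and the bars without a call lie between -0.35 for six4b and 0.75 for meis4.1a.

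Among 26 genes of the ectoderm border, placodes and epidermis, 7 were tested. The authors' deposited table called 2 lower (28.6%) and 0 higher, against 4.35% and 20.6% of all tested genes. Here too, with 7 tested genes, the group shares are coarse. At an unadjusted Cuffdiff p under 0.05 the counts were also 2 and 0. six4a (ENSDARG00000004695, chromosome 13, 31860329 to 31870925), a sine oculis-related gene of the sensory placodes, was at 2.53 FPKM in mock against 1.28 FPKM in Dcp2-DN embryos, a 1.98-fold fall (q = 0.00195 in the authors' deposited table). msxc (ENSDARG00000015674, chromosome 13, 24886127 to 24888558), one of the muscle segment homeobox genes of the neural plate border, was at 3.22 and 2.08 FPKM, a 1.55-fold fall (q = 0.0252 in the authors' deposited table). six4b, the duplicate of six4a, and msxb were tested and not called. six4b was at 1.87 and 1.44 FPKM with a locus span shared with 4 other genes (q = 0.395 in the authors' deposited table), and msxb was at 7.76 and 6.58 FPKM (q = 0.345 in the authors' deposited table).

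Further tested genes of this group, among them six4.3 and pax7b, had slightly higher values in Dcp2-DN embryos and no call. six4.3 was at 12.3 and 13.4 FPKM (q = 0.588 in the authors' deposited table), and pax7b, a neural crest gene, at 2.79 and 3.09 FPKM (q = 0.815 in the authors' deposited table). All 8 distal-less genes were untested. Of these, dlx6a alone reached 1 FPKM, with 0.889 FPKM in mock against 1.03 FPKM in Dcp2-DN embryos, and dlx3b, a marker of the preplacodal border, was at 0.786 and 0.474 FPKM. The other msx genes were untested, with msxe at 1.2 FPKM in both groups and msxa at 0.337 and 0.639 FPKM. The highest gene of this group under 1 FPKM was msxd, at 0.291 FPKM in mock against 0.999 FPKM in Dcp2-DN embryos.

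The TALE cofactors (named for an extended loop in their homeodomain), the Pbx and Meis proteins that bind DNA together with Hox proteins, were expressed in a larger share than any role group but the organiser pair, and none of them was called. Of 14, 6 (42.9%) reached 1 FPKM in both groups and were tested, and at an unadjusted p under 0.05 in Cuffdiff 1 was higher and 1 lower. pbx4 (ENSDARG00000052150), the main Pbx gene of the early zebrafish embryo, was at 39.3 FPKM in mock against 32.9 FPKM in Dcp2-DN embryos, with p = 0.01695 and q = 0.0636 in the authors' deposited table. pbx2 was at 29.4 and 27.4 FPKM (q = 0.549 in the authors' deposited table). The model PBX4 (2 of 2), on the unplaced scaffold Zv9_NA116, was at 17.1 and 17.6 FPKM (q = 0.925 in the authors' deposited table), and reads could be split between it and pbx4. These 3 models were the abundant cofactors, and none differed by more than 1.2-fold.

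The rarer cofactors pbx3b and meis4.1a had the higher value in Dcp2-DN embryos without a call. pbx3b was at 1.68 FPKM in mock against 2.0 FPKM in Dcp2-DN embryos (q = 0.805 in the authors' deposited table). meis4.1a was at 1.30 and 2.24 FPKM, with p = 0.0304 and q = 0.0973 in the authors' deposited table, the largest ratio of the 6 tested cofactors (1.73-fold) but not a call. The highest of the 8 cofactor models under 1 FPKM was meis3, at 0.981 FPKM in mock against 0.951 FPKM in Dcp2-DN embryos.

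Among trunk and tail genes, cdx4 was the one abundant transcript, and it fell. cdx4 (ENSDARG00000036292, chromosome 14, 33816790 to 33820242), a caudal-related gene that in zebrafish is needed for the posterior body and acts upstream of hox genes, was at 38.3 FPKM in mock against 22.9 FPKM in Dcp2-DN embryos. This was 1.67-fold lower (q = 0.000593 in the authors' deposited table). It was the fifth gene of the set by level in mock and the seventh in Dcp2-DN embryos. Its relative cdx1a was untested at 1.22 FPKM in mock against 0.587 FPKM in Dcp2-DN embryos, and cdx1b was at 0.0187 and 0 FPKM.

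The hox genes themselves were almost silent in both groups. None of the 50 hox gene models was tested by the authors. While 11 were at 0 in both groups, so were 7364 of all 32571 gene models, a similar share. The zeros therefore do not set the hox genes apart. Their low level showed in the FPKM sums, 5.31 for mock and 7.69 for Dcp2-DN. Each sum was less than a single moderately expressed gene such as gbx1 (7.32 and 10.3 FPKM). hoxb2a, a hindbrain gene, was the one model to reach 1 FPKM, at 0.735 FPKM in mock against 1.14 FPKM in Dcp2-DN embryos. hoxd9a, of the posterior trunk, came next with 0.709 and 0.869 FPKM, and hoxc12a, of the tail end of its cluster, was at 0.390 and 0.527 FPKM. hoxb1b, which responds early to retinoic acid in the zebrafish hindbrain, was at 0.147 FPKM in mock against 0.0589 FPKM in Dcp2-DN embryos. By paralogue group, the sums were 1.57 and 2.21 FPKM for the 14 models of groups 1 to 4, 1.03 and 1.63 FPKM for the 12 models of groups 5 to 8, and 2.71 and 3.85 FPKM for the 24 models of groups 9 to 13. Many of these models share a locus span with other hox genes, so reads may have been split among them. At these levels differences between the groups were not tested by the authors, and none is claimed.

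**Figure D4:**
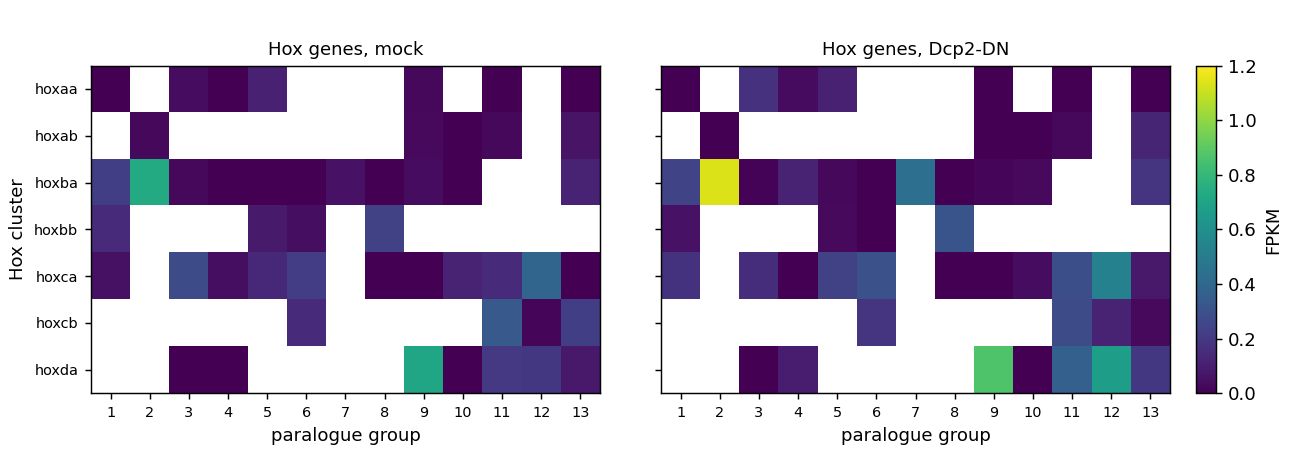
FPKM of hox genes in mock (left) and Dcp2-DN embryos (right) by cluster (rows) and paralogue group (columns), with colour from 0 to 1.2 FPKM and white where the set holds no model (where a symbol has more than 1 model, the highest is shown). hoxb2a is the brightest cell in both panels, at 0.735 and 1.14 FPKM.

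The remaining LIM, NK, paired box, sine oculis-related, Tlx and Hmx genes held the other 2 rises. Of 34 such genes, 4 were tested. The authors' deposited table held 2 as higher (50%) and 0 as lower, against 20.6% and 4.35% of all tested genes. With 4 tested genes the group share is coarse. At an unadjusted Cuffdiff p under 0.05 the counts were also 2 and 0. lhx8a (ENSDARG00000002330, chromosome 2, 10997099 to 11001473), a LIM homeobox gene whose mouse counterpart is needed in oocytes and in forebrain neurons, rose from 8.95 FPKM in mock to 14.6 FPKM in Dcp2-DN embryos, a 1.63-fold rise (q = 0.00109 in the authors' deposited table). pax1b (ENSDARG00000073814, chromosome 20, 49182905 to 49189317), a paired box gene known from the sclerotome and pharyngeal pouches, rose from 0.548 to 1.93 FPKM, a 3.53-fold rise (q = 0.00994 in the authors' deposited table). It had the largest fold of any member with a call and crossed 1 FPKM only in Dcp2-DN embryos. Its neighbours on chromosome 20 among the members, nkx2.2b and nkx2.1a, whose locus spans lie 37293 and 101654 bases away, had no value above 0.395 FPKM in either group.

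The other 2 tested genes of this group were not called. nkx3.2, a gene of the jaw joint, was at 2.31 FPKM in mock against 2.65 FPKM in Dcp2-DN embryos (q = 0.643 in the authors' deposited table), and nkx6.1, of the ventral neural tube and pancreas, at 1.48 and 1.72 FPKM (q = 0.584 in the authors' deposited table). six9 was untested at 0.594 and 1.15 FPKM. Among the 29 genes under 1 FPKM in both groups, pax9 was the highest, at 0.598 and 0.777 FPKM. All 3 Tlx and all 4 Hmx genes, which act in later sensory and nervous system development, were below 0.4 FPKM.

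The zebrafish genome holds many of these genes as duplicates, named a and b, and in most expressed pairs only 1 copy reached 1 FPKM. Outside the hox genes, 27 such pairs had both copies in the table and 14 had a copy at 1 FPKM or more. Pairs were formed by the deposited symbols alone. Of 139 members in the name table only 65 had the same symbol there, so some pairs may not be true duplicates. In 10 of the 14 the other copy stayed under 1 FPKM in both groups, as for irx1b (16.3 FPKM in mock) beside irx1a (0.221 FPKM) and lhx8a (8.95 FPKM) beside lhx8b (0.0796 FPKM). Both copies were tested in 3 pairs. In the pairs named otx1 and six4 the a copy fell and the b copy was not called, and in the lhx1 pair neither was called. Whether the copies of a pair differed in their response was not tested.

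Directions were also counted, first without regard to the calls. Of the 33 tested members, 21 had the higher value in Dcp2-DN embryos (63.6%), against 62.5% of all tested genes whose values differed between the groups. Among the 21 tested members without a call, 17 were higher in Dcp2-DN embryos (81%), against 55.9% of all such genes. Of the 126 untested members above 0 in a group, 77 were higher in Dcp2-DN embryos (61.1%), against 55.4% of all such gene models. The median log2 ratio over the 34 members whose mean reached 1 FPKM was 0.09, and that over all 15457 such gene models was 0.12. Relative to that shift, the 8 falls became larger on the log2 scale (otx2 -1.40, otx1a -0.60) and the 4 rises smaller (irx7 0.22).

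Signals that set up the axes also went both ways. Of 25 tested genes for such ligands, antagonists and downstream factors, the authors' deposited table held 6 as higher and 7 as lower. The 24% higher was near the 20.6% of all tested genes. The 28% lower was above the 4.35% of all tested genes, as was the 24.2% of the homeobox and paired box genes. The median log2 ratio over the list was 0.06. The largest rises were those of the Nodal antagonist lft2 (50.8 to 88.0 FPKM), the Nodal ligand ndr1 (17.8 to 28.8 FPKM) and the fibroblast growth factor fgf8a (56.4 to 85.5 FPKM). The largest falls were those of sp5l, a zinc finger target of Wnt signalling (91.6 to 59.5 FPKM), frzb, a secreted Wnt antagonist (14.2 to 9.91 FPKM), and tcf7l1a, a repressor of Wnt targets that zebrafish need for the forebrain (40.6 to 29.8 FPKM). These 6 genes had q-values between 0.000593 and 0.00415 in the authors' deposited table. wnt8a, the posteriorising Wnt ligand, has 2 models with the same locus span, neither called. One was at 29.8 FPKM in mock against 34.9 FPKM in Dcp2-DN embryos and the other at 45.9 against 37.6 FPKM. Reads may have been split between them. cyp26a1, which breaks down retinoic acid, was at 95.9 and 113 FPKM and was also not called.

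A further list held 24 tested transcription factors of the neural plate, crest and epidermis outside the homeobox and paired box families. The authors' deposited table held 5 as higher (20.8%, near the 20.6% of all tested genes). It held 2 as lower (8.33%, against 4.35% of all tested genes). sox2, a neural factor of the SoxB1 group, fell from 46.6 to 26.8 FPKM and her3, a hairy-related repressor, from 26.6 to 14.1 FPKM, both with q = 0.000593 in the authors' deposited table. her5, of the midbrain-hindbrain region, had the largest rise of this list (30.1 to 65.7 FPKM), followed by foxb1.1 (1.16 to 2.25 FPKM) and her11 (11.6 to 18.3 FPKM). The locus spans of sox2 and foxb1.1 were each shared with 1 other gene. The other 2 rises were those of sox19b, a SoxB1 gene like sox2 (70.2 to 105 FPKM, q = 0.000593 in the authors' deposited table), and foxi1, of the non-neural ectoderm (27.8 to 36.2 FPKM, q = 0.0102 in the authors' deposited table). The pan-neural gene sox3, also of the SoxB1 group, was not called, at 268 FPKM in mock against 274 FPKM in Dcp2-DN embryos, nor were the epidermal genes tfap2a (40.5 and 38.6 FPKM) and gata2a (15.8 and 15.6 FPKM).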

How the data were processed

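Stranded, ribosomal RNA-depleted libraries were made from total RNA of whole embryos, per the labels' protocols. The assembly Zv9 (also danRer7), TopHat 1.4.0 and Cuffdiff 2.1.1 are named in the submitters' processing notes. Annotation release, scaling and strand setting are not given in the sources used here. The deposited table has, per the file headers, 1 FPKM estimate for each gene in each group together with Cuffdiff's p-value and q-value. Its fold change and statistic columns, damaged in a spreadsheet program, were left aside.

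Members were found by symbol in the gene column without regard to case, dropping a trailing copy number. Of the 174 IDs, 139 were in the name table used here, 65 of them under the same symbol. Log2 ratios used a pseudocount of 0.1 FPKM, so low genes appear to change less than they do, and folds used none. Calls are the authors' (status OK, q under 0.05). The calculation of ratios and counts was checked on values planted without noise, which checks the arithmetic only. Python 3.11.15, NumPy 2.4.6, pandas 2.3.3 and matplotlib 3.10.9 were used. Depth is unknown, and no error per group could be computed.

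The members, role groups and lists were chosen with earlier results of these data known. Genes named were all members with a call, all others at 1 FPKM or more in a group, the highest member of each role group under that level, up to 3 called genes per direction from both further lists, and dcp2. Some genes that this rule takes are not reported here by name, though counts include them. The other hox, dlx, msx, rx, vsx, gbx and paralogue examples were named after their values were seen. So were sox19b, foxi1, mxtx2, apoa1a and the uncalled genes of the further lists. Coordinates are the deposited locus spans, whose first base may count from 0 or 1. Alternatives were other floors, pseudocounts, call thresholds, centring and the omission of shared loci.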

Additional observations from a re-analysis of the deposited data

How the results depend on the processing

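No paired analysis was possible because the table holds 1 value per group, and for the same reason no replicate could be left out. With a floor of 5 FPKM in place of 1 FPKM, 18 members reached it in each group. The count of members called lower was 6 at q under 0.01, 7 with a minimum fold of 1.5 and 9 at an unadjusted p under 0.05, against 8 as reported. The count called higher was 2 at q under 0.01 and 2 with a minimum fold of 1.5, against 4 as reported, and 6 at an unadjusted p under 0.05. Both counts were as reported with shared loci left out and, in an alternative chosen after seeing the data, with the 4 gene models added whose symbol in the name table meets the rule. Neither alternative could change them, since 0 called members shared a locus span and 0 of the 4 added models were tested. The median log2 ratio of the members was 0.09 as reported, 0.076 with a pseudocount of 1 FPKM, 0.046 where the mean had to reach 5 FPKM, 0.17 over all 159 members above 0 and 0.13 without shared loci. Centred on the median of all gene models it turned to -0.029. Of 41 members whose ratio was recomputed, 0 called genes changed sign under centring or a pseudocount of 1 FPKM. This outcome was fixed in advance. A pseudocount cannot change a sign, and the median subtracted in centring (0.12) was smaller than the smallest called ratio (irx7, 0.34). Under centring 4 uncalled genes, among them lhx1a, irx3a and PBX4 (2 of 2), changed sign. The causes of these shifts were not tested. Depth is unknown, which limits what can be said of genes under 1 FPKM.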
